A study of Homo sapiens with 8 samples.

Results

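The genes described here encode the collagens, the laminin chains, the hyaluronan synthases, fibronectin (FN1) and the nidogens (NID1 and NID2). They were chosen by name: a symbol of the collagen or laminin pattern on the array platform, or HAS1, HAS2, HAS3, FN1, NID1 or NID2. This gave 59 genes, made up of 43 collagens, 11 laminin chains, 2 hyaluronan synthases and 3 genes of fibronectin and the nidogens, of 19426 genes on the platform. All 59 were among the 18732 genes tested. HAS1 is not analysed here, and COL29A1 of the platform appears under its present symbol, COL6A5.

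Affymetrix exon arrays were used to read the RNA of NTera2/D1, a human embryonal carcinoma line that leaves its stem-cell-like state under retinoic acid (RA). The 4 groups were RA with siRNF20, RA with siLacZ, DMSO with siRNF20 and DMSO with siLacZ, where RA was given at 10 µM for 72 h and DMSO is its solvent. All groups thus carried a small interfering RNA, either against RNF20, the ligase that puts a single ubiquitin on histone H2B, or against the bacterial gene LacZ. Each group had 2 arrays of 1 cell line, numbered GF117 and GF120, described by the labels as biological duplicates, and the labels do not say what the numbers stand for, so p-values measure the spread between these cultures alone. The design asks what RA changes, what RNF20 depletion changes, and whether the RA response differs between the 2 small interfering RNAs.

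The extracellular matrix is built outside the cell from these products. Collagens assemble as triple helices into fibrils, sheets or filaments, and laminins, each a trimer of an alpha, a beta and a gamma chain, form the sheet on which basement membrane collagen IV and the nidogens are laid. Hyaluronan is a sugar chain extruded through the cell membrane by its synthases, and fibronectin links cells to the fibrils. In mouse embryonal carcinoma F9 cells, RA is known to induce laminin and collagen IV chains as the cells turn into endoderm.

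The GF117 RA siLacZ array stood apart. Across genes, its Pearson r with any other array was 0.0780 to 0.185, while r among the others was 0.908 to 0.974, and its upper quartile of intensity was 59.8, against 54.9 to 55.1 on the others. Values below therefore come from the other 7 arrays, with RA siLacZ resting on GF120 alone, whose spread is taken to be that of the other groups. With all 8 arrays no gene passed in any contrast (limma, adjusted p below 0.05), of the members or of all genes tested, and 7, 6, 0, 1 and 0 members had an unadjusted p under 0.05, in the order RA in siLacZ, RA in siRNF20, siRNF20 in DMSO, siRNF20 in RA and the difference between RA responses. Of all genes tested, 1510, 504, 27, 560 and 113 did so. RNF20, the target, read 6.27 and 5.89 on the RA siRNF20 arrays (log2 intensity, GF117 first here and in what follows), against 8.10 in RA siLacZ (GF120) and 6.08 on the array that stood apart. It read 6.48 and 5.98 on the DMSO siRNF20 arrays, against 8.24 and 8.09 on the DMSO siLacZ arrays. The siRNF20 arrays were thus low and did not overlap the siLacZ arrays, the one that stood apart excepted, with log2 differences of -2.02 in RA (SE 0.29, adjusted p = 0.11) and -1.94 in DMSO (SE 0.23, adjusted p = 0.237). The stem-cell markers of the labelled line were present in DMSO, and 6 of 10 passed as lower with RA in each background, 5 of them in both. Their summed intensity was 7799 to 8497 in RA siRNF20, 6032 in RA siLacZ, 11117 to 11387 in DMSO siRNF20 and 10698 to 11033 in DMSO siLacZ.

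The first comparison asks what RA does to matrix genes. In siRNF20 cells 6 of the 59 members passed (10.2%, against 3.92% of all genes tested), 4 higher (1.79% of all genes) and 2 lower (2.13%). In siLacZ cells 5 passed (8.47%, against 3.91% of all genes), 4 higher (1.88%) and 1 lower (2.03%). LAMA4, LAMB2 and COL5A2 were higher and HAS3 lower in both, HAS2 was called higher and LAMC3 lower in siRNF20 cells, and COL1A1 was called higher in siLacZ cells. The median log2 difference over the members was 0.02 in siRNF20 and -0.01 in siLacZ cells, against -0.03 and -0.05 over all genes. The set was thus centred near no change, which does not say how many members moved. Leaving out either DMSO siLacZ array lowered the siLacZ count to 2, LAMA4 and HAS3, and leaving out the GF117 DMSO siRNF20 array lowered the siRNF20 count to 3. With all 8 arrays the log2 differences in siLacZ cells were 3.12 for LAMA4, 0.49 for LAMB2, 1.33 for COL5A2, 2.08 for COL1A1 and -3.19 for HAS3, none of which passed. The array that stood apart read 5.44 for LAMA4, 7.83 for LAMB2, 7.35 for COL5A2, 8.81 for COL1A1, 2.84 for HAS2, 2.89 for HAS3 and 5.36 for LAMC3. Among the members, 58 read above the dim-row limit, the median row of the array (log2 3.97), on all 7 arrays, and LAMA4 was below it on 3. Rows had been kept by their mean on these arrays against this same limit. The count of 58 is thus largely set by the filter and does not show that these genes were detected. COL8A1, for one, kept 4 of 21 rows and COL6A5 14 of 49.

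**Figure D1:**
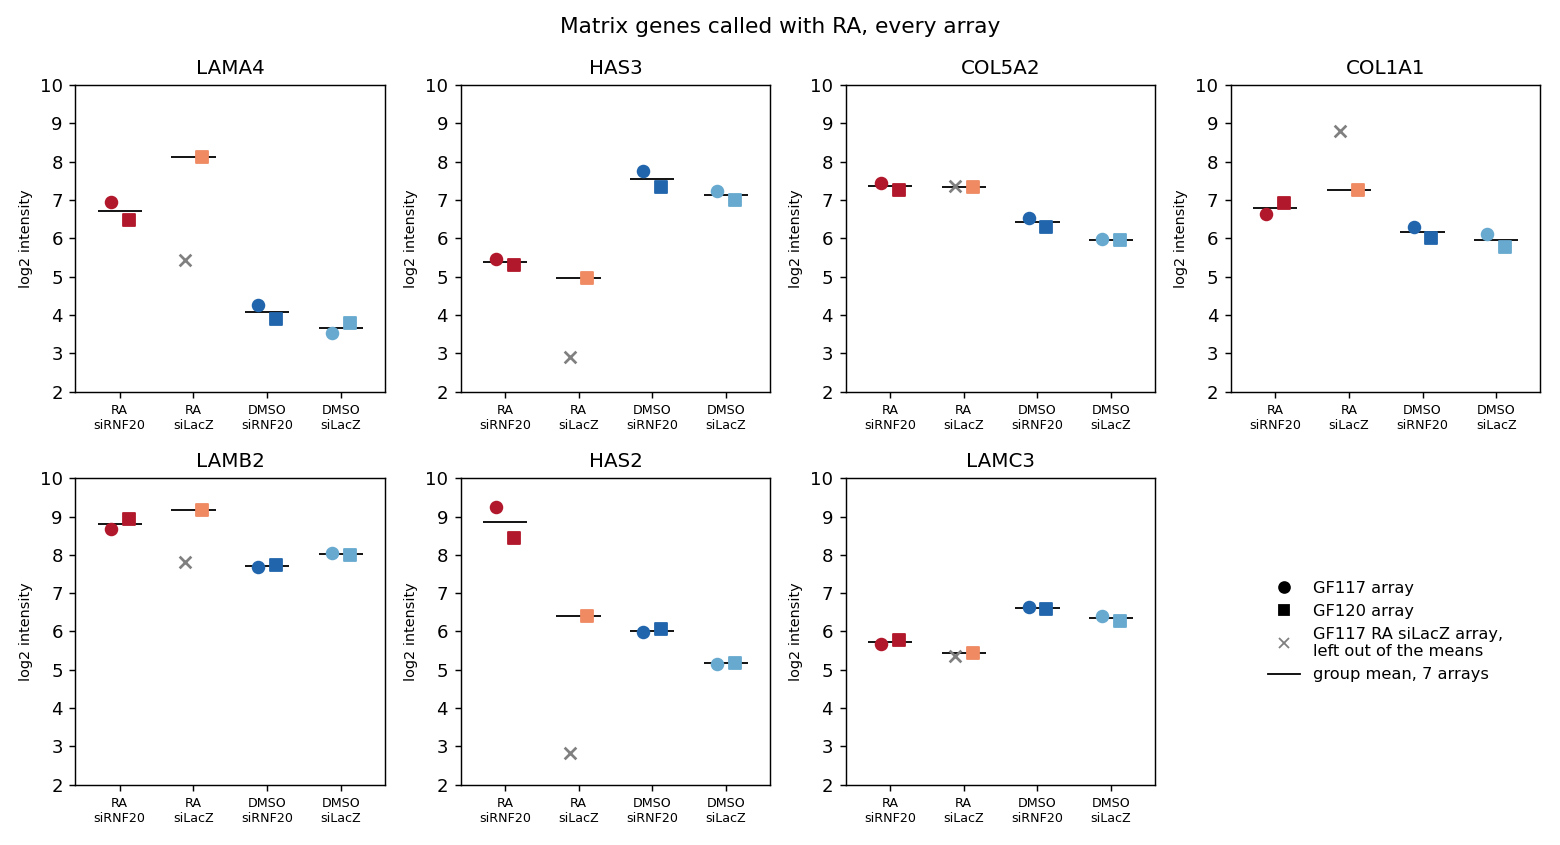
The log2 intensity of the 7 members that passed for RA in at least 1 background, 1 panel a gene and 1 point an array, with RA left of DMSO, lines at the group means and a cross for the GF117 RA siLacZ array, which is left out of the means. That array aside, LAMA4, LAMB2 and COL5A2 sit higher and HAS3 lower under RA with no overlap, and HAS2 is highest on the 2 RA siRNF20 arrays.

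The 3 members called in both backgrounds and held in RefSeq's table of promoters (build GRCh38.p14) are shown because their differences with RA passed in siRNF20 and in siLacZ cells. Capitals mark the only match to a searched motif, a GC box (GGGCGG) read on the other strand, and LAMA4 held none. HAS3 lies at chr16:69107290-69107539 on the plus strand, LAMA4 at chr6:112254568-112254817 and LAMB2 at chr3:49133051-49133300 on the minus strand, each 250 bases before the start.
HAS3: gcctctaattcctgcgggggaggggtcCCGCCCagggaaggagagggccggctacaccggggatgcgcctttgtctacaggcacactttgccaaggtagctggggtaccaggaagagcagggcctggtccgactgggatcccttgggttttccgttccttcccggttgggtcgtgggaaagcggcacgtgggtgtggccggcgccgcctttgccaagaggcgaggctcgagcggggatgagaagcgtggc
LAMA4: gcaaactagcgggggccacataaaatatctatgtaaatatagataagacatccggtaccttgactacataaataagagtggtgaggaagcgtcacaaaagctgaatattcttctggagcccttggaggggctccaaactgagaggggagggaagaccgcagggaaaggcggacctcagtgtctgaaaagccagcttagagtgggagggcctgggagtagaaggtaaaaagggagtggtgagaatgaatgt
LAMB2: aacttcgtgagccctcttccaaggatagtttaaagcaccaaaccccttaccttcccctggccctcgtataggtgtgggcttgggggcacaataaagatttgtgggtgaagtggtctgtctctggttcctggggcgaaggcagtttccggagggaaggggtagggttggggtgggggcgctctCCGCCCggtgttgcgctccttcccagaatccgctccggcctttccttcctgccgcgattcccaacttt
Motifs were searched on both strands of the 250 bases before each start, in 58 windows of 44 of the 59 members. A retinoid half-site (AGGTCA or GGGTCA or AGTTCA or GGTTCA) stood in 11 of the 58, against 33.8% of 35116 windows of all genes. The direct repeats of it at spacings of 1, 2 and 5 bases stood in none of the 58, against 0.0968%, 0.0313% and 0.074% of all windows. GGGCGG stood in 36 of 58 (42.6% of all), CCAAT in 17 (32%) and TATAAA in 8 (10.7%). A match is a description of these letters.

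LAMA4 encodes the alpha 4 laminin chain of vessel, nerve and muscle basement membranes. It read 6.94 and 6.48 (log2 intensity) in RA siRNF20, 8.11 in RA siLacZ, 4.26 and 3.90 in DMSO siRNF20, and 3.53 and 3.79 in DMSO siLacZ. Every RA array was above every DMSO array, and 3 of the 4 DMSO readings, both of siLacZ and the GF120 siRNF20 one, lay below the dim-row limit. The log2 difference with RA was 2.63 in siRNF20 cells (SE 0.28, adjusted p = 0.000771) and 4.46 in siLacZ cells (SE 0.34, adjusted p = 0.0002). Since both DMSO siLacZ readings were below the limit, the siLacZ difference is given as a bound, with those readings set to the limit. On the GF120 RA siLacZ array LAMA4 was at least 17.7-fold higher than that. The bound covers the DMSO side only, and the RA siLacZ array left out read 5.44. With all 8 arrays the log2 difference in siLacZ cells was 3.12. LAMA4 was 6.2-fold higher with RA in siRNF20 cells, where 1 of 2 DMSO readings was below the limit. These sizes rest on rows kept by a mean over RA and DMSO arrays together, which can favour rows higher with RA. With no filter on dim rows LAMA4 was still called in both backgrounds. With 16 added to each intensity before the log, the log2 difference was 1.88 in siRNF20 and 3.35 in siLacZ cells. The other alpha chains, LAMA1, LAMA2, LAMA3 and LAMA5, did not pass, with log2 differences of -0.03 to 0.32 in siRNF20 and -0.08 to 0.26 in siLacZ cells.

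LAMB2 encodes the beta 2 chain of synaptic and kidney basement membranes. It read 8.68 and 8.93 in RA siRNF20, 9.18 in RA siLacZ, 7.68 and 7.73 in DMSO siRNF20, and 8.04 and 7.997 in DMSO siLacZ. All RA arrays kept were high and there was no overlap, but the RA siLacZ array left out read 7.83, among the DMSO readings. The log2 difference was 1.10 in siRNF20 (SE 0.17, adjusted p = 0.00535) and 1.16 in siLacZ cells (SE 0.20, adjusted p = 0.013), 2.15-fold and 2.24-fold. Without the GF117 DMSO siRNF20 array the siRNF20 call was lost (adjusted p = 0.0557). The other beta chains, LAMB3 and LAMB4, did not pass, with log2 differences of -0.31 to 0.16 in siRNF20 and -0.17 to -0.14 in siLacZ cells. The beta 1 chain LAMB1, which pairs with most alpha chains, read 8.86 and 8.80 in RA siRNF20, 9.04 in RA siLacZ, 8.68 and 8.82 in DMSO siRNF20, and 8.87 and 8.88 in DMSO siLacZ. Its log2 differences were 0.08 and 0.17 and did not pass.

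Of the gamma chains, LAMC3 read 5.69 and 5.77 in RA siRNF20, 5.44 in RA siLacZ, 6.64 and 6.60 in DMSO siRNF20, and 6.40 and 6.28 in DMSO siLacZ. RA arrays were low without overlap. The log2 difference was -0.89 in siRNF20 cells (SE 0.20, adjusted p = 0.0449), a call that was lost with any of 6 single arrays left out, and -0.90 in siLacZ cells (SE 0.25, adjusted p = 0.0933). LAMC1, the gamma 1 chain of most laminins, read 9.95 and 9.72 in RA siRNF20, 9.84 in RA siLacZ, 9.76 and 10.06 in DMSO siRNF20, and 10.29 and 10.05 in DMSO siLacZ, with log2 differences of -0.08 and -0.33 that did not pass.

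HAS2 and HAS3 make hyaluronan, HAS2 chains of high mass and HAS3 shorter ones. HAS2 read 9.25 and 8.44 in RA siRNF20, 6.41 in RA siLacZ, 5.98 and 6.07 in DMSO siRNF20, and 5.16 and 5.18 in DMSO siLacZ. The RA siRNF20 arrays stood above all others, the DMSO siRNF20 arrays below the RA siLacZ array and above the DMSO siLacZ arrays. The log2 difference with RA was 2.82 in siRNF20 cells (SE 0.27, adjusted p = 0.000415), 7.07-fold, and 1.24 in siLacZ cells (SE 0.33, adjusted p = 0.0755), 2.37-fold. The siLacZ difference passed when GF120 RA siRNF20 was left out (adjusted p = 0.0208) and with the mean over rows (1.68, adjusted p = 0.0404), and with all 8 arrays it was -0.54 (SE 1.02, adjusted p = 0.734). HAS3 read 5.46 and 5.30 in RA siRNF20, 4.96 in RA siLacZ, 7.77 and 7.35 in DMSO siRNF20, and 7.23 and 7.01 in DMSO siLacZ. All RA arrays were low and there was no overlap. The log2 difference was -2.18 in siRNF20 (SE 0.22, adjusted p = 0.000689) and -2.16 in siLacZ cells (SE 0.28, adjusted p = 0.00227), or 4.52-fold and 4.46-fold lower with RA.

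Among the fibrillar collagens, which form the ropes of connective tissue, COL5A2 and COL1A1 passed for RA in at least 1 background. COL5A2, the alpha 2 chain of collagen V, which helps set the width of fibrils, read 7.44 and 7.27 in RA siRNF20, 7.33 in RA siLacZ, 6.53 and 6.30 in DMSO siRNF20, and 5.97 and 5.94 in DMSO siLacZ. All RA arrays were above all DMSO arrays. The log2 difference was 0.94 in siRNF20 (SE 0.20, adjusted p = 0.0323) and 1.37 in siLacZ cells (SE 0.24, adjusted p = 0.0143), 1.91-fold and 2.59-fold. The siRNF20 call was lost with any of 6 single arrays left out, and the siLacZ call without either DMSO siLacZ array. COL1A1, the main chain of collagen I, read 6.64 and 6.91 in RA siRNF20, 7.25 in RA siLacZ, 6.31 and 6.01 in DMSO siRNF20, and 6.10 and 5.78 in DMSO siLacZ. RA arrays were again the higher, with a log2 difference of 0.62 in siRNF20 (SE 0.23, adjusted p = 0.217) and 1.30 in siLacZ cells (SE 0.28, adjusted p = 0.0331). COL1A2, which makes the partner chain of collagen I, had log2 differences of 0.02 and 0.20, and COL11A1 0.87 (adjusted p = 0.067) and 0.74 (adjusted p = 0.207), and neither passed.

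In the 7-array fit basement membrane collagen IV did not pass in any of its 6 chains. The result for COL4A2 depended on the processing. It passed under 5 of 14 alternatives for RA in siLacZ cells and 1 of 15 for RA in siRNF20 cells. COL4A2 read 8.25 and 8.27 in RA siRNF20, 8.63 in RA siLacZ, 7.71 and 7.83 in DMSO siRNF20, and 7.82 and 7.82 in DMSO siLacZ. RA arrays were high without overlap, and the log2 difference was 0.49 in siRNF20 (SE 0.16, adjusted p = 0.164) and 0.81 in siLacZ cells (SE 0.20, adjusted p = 0.0594). COL4A1, its partner chain, read 7.69 and 7.61 in RA siRNF20, 8.02 in RA siLacZ, 7.68 and 7.50 in DMSO siRNF20, and 7.33 and 7.55 in DMSO siLacZ. The groups overlapped in siRNF20 cells, with log2 differences of 0.06 and 0.58 that did not pass. Fibronectin, the nidogens, and the largest movers of the other groups, COL6A3 of the beaded filaments, COL22A1 of the network and fibril-associated (FACIT) collagens and COL23A1 of the transmembrane ones, did not pass either. COL6A3, a chain of collagen VI, read 4.68 and 4.95 in RA siRNF20, 4.71 in RA siLacZ, 5.66 and 5.85 in DMSO siRNF20, and 5.84 and 5.10 in DMSO siLacZ. Its RA arrays were low without overlap, with log2 differences of -0.94 in siRNF20 (adjusted p = 0.146) and -0.76 in siLacZ cells (adjusted p = 0.367). COL22A1 read 6.10 and 6.13 in RA siRNF20, 5.95 in RA siLacZ, 5.44 and 5.41 in DMSO siRNF20, and 5.11 and 5.22 in DMSO siLacZ. Its RA arrays were high without overlap, with log2 differences of 0.69 (adjusted p = 0.145) and 0.78 (adjusted p = 0.179). COL23A1 read 5.83 and 6.17 in RA siRNF20, 6.08 in RA siLacZ, 6.53 and 6.83 in DMSO siRNF20, and 6.59 and 6.9999 in DMSO siLacZ. The RA arrays were again low without overlap, at -0.68 and -0.71. These statements leave out the array that stood apart. It read 7.03 for COL23A1, above every DMSO array, and 5.42 for COL6A3, within the DMSO range. For COL22A1 it read 6.79 and for COL4A2 8.12, both above the DMSO arrays. That array also read many other collagens above every DMSO array, such as COL8A2 at 9.05 and COL5A3 at 8.05. Some it read below, such as COL12A1 at 4.12. Its readings are therefore no separate evidence on RA. FN1 had RA differences of -0.13 and -0.22, NID1 0.25 and 0.18, and NID2 0.03 and 0.81.

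The 41 members not described by array did not pass in any contrast. With RA their log2 differences lay between -0.73 and 0.87 in siRNF20 cells, 21 of them above 0, and between -0.66 and 0.75 in siLacZ cells, 17 above 0. The 12 other network and FACIT collagens lay between -0.73 and 0.24 in siRNF20 and between -0.66 and 0.38 in siLacZ cells, and the 9 other fibrillar collagens between -0.50 and 0.87 and between -0.60 and 0.74. The 6 other beaded filament and anchoring collagens lay between -0.64 and 0.19 and between -0.54 and 0.13, and the 4 other chains of collagen IV between -0.020 and 0.52 and between -0.20 and 0.75. These 4 collagen groups had members on both sides of 0.

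Across the 59 members the RA response in siRNF20 cells ran with that in siLacZ cells at Pearson r = 0.862 and Spearman rho = 0.781, and 42 had the same sign. This describes points that are genes and not independent replicates, each response resting on its own arrays. Without HAS2, HAS3 and LAMA4 the values were 0.831, 0.744 and 39 of 56.

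**Figure D2:**
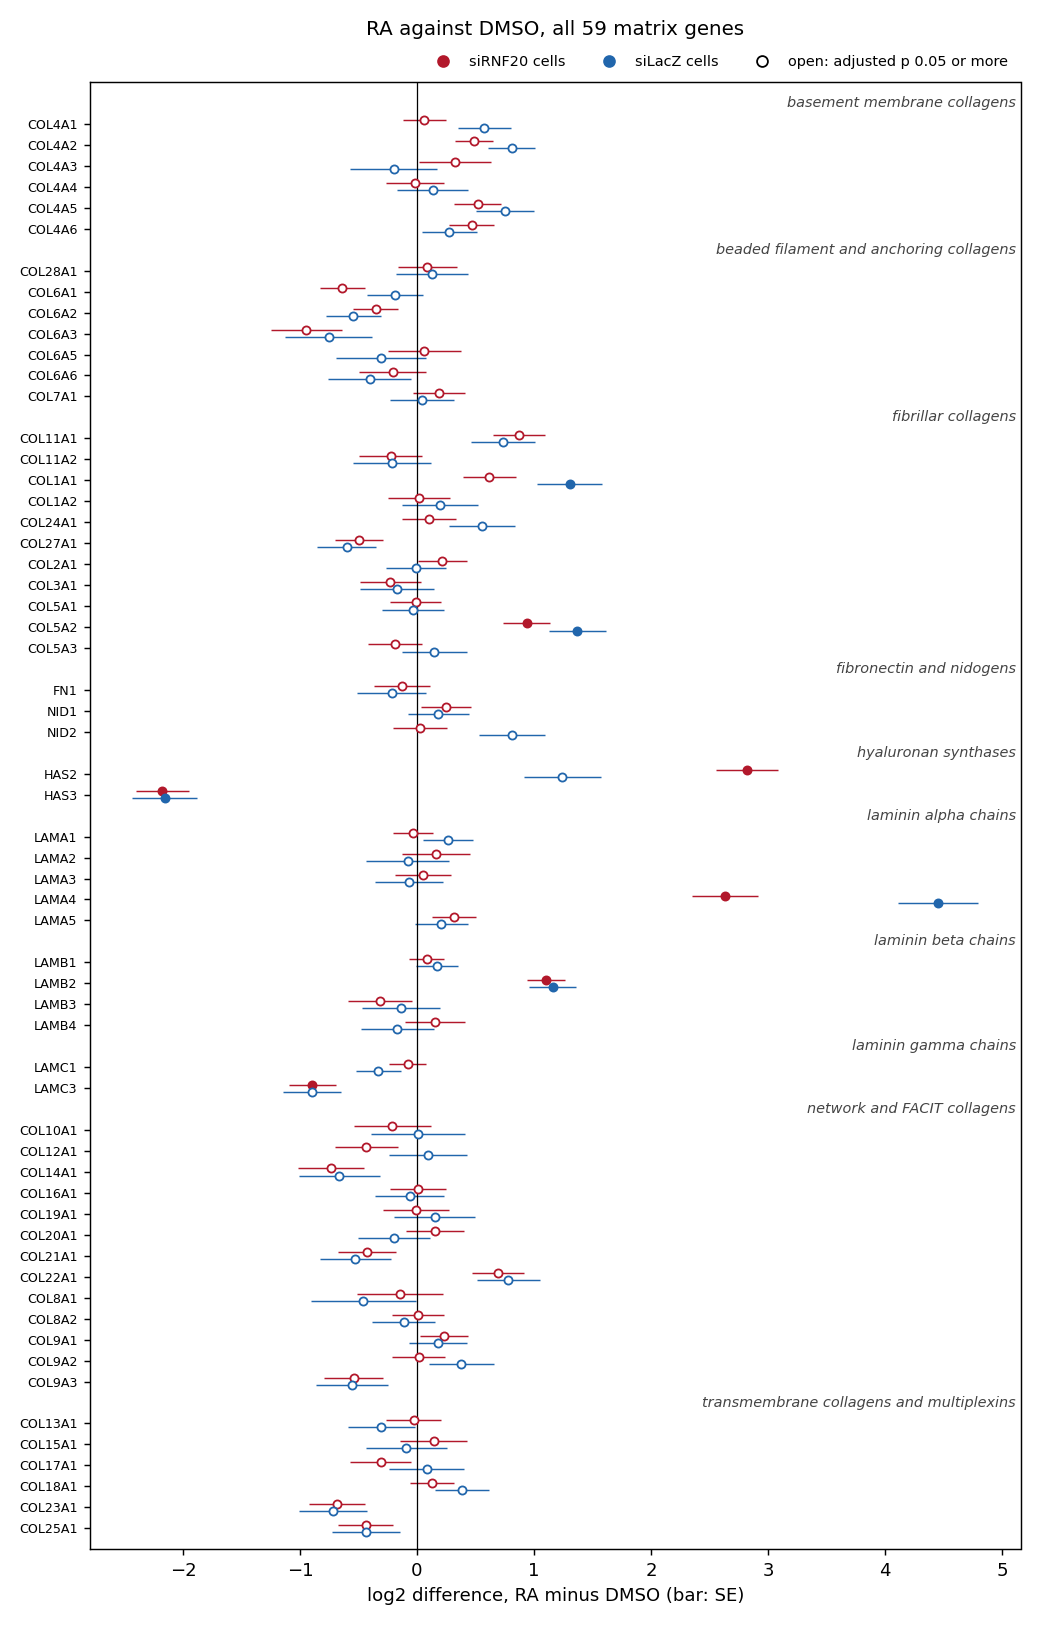
The log2 difference with RA (x axis) of each of the 59 members, in siRNF20 (red) and siLacZ (blue) cells, with bars of 1 SE and open points where limma's adjusted p was 0.05 or more. LAMA4, HAS2 and HAS3 lie farthest from 0, and COL5A2 and COL1A1 are the only collagens beyond 1 log2 unit.

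The array reads each gene through many rows, one per probe set. The numbers below are rows kept above the dim limit in mean log2, taken over RA and DMSO arrays together. Rows of a gene come from the same arrays and are not replicates. For LAMA4, 45 of 46 rows were higher with RA in siRNF20 and 43 in siLacZ cells. LAMB2 had 43 and 42 of 43, COL5A2 61 and 60 of 61, COL1A1 56 and 54 of 57, COL4A2 55 and 54 of 55, and HAS2 6 of 6 in both. HAS3 rows were lower in 6 and 9 of 9, and LAMC3 rows in 34 and 31 of 34. COL10A1 kept 2 rows and COL8A1 4, so their values rest on few probes. LAMA4 kept 46 of its 60 rows, and as a gene it read below the limit on 3 DMSO arrays. Its rows could thus be kept through high RA readings, which favours rows higher with RA. The LAMA4 row count is therefore partly set by the filter and is no separate evidence of its rise.

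**Figure D3:**
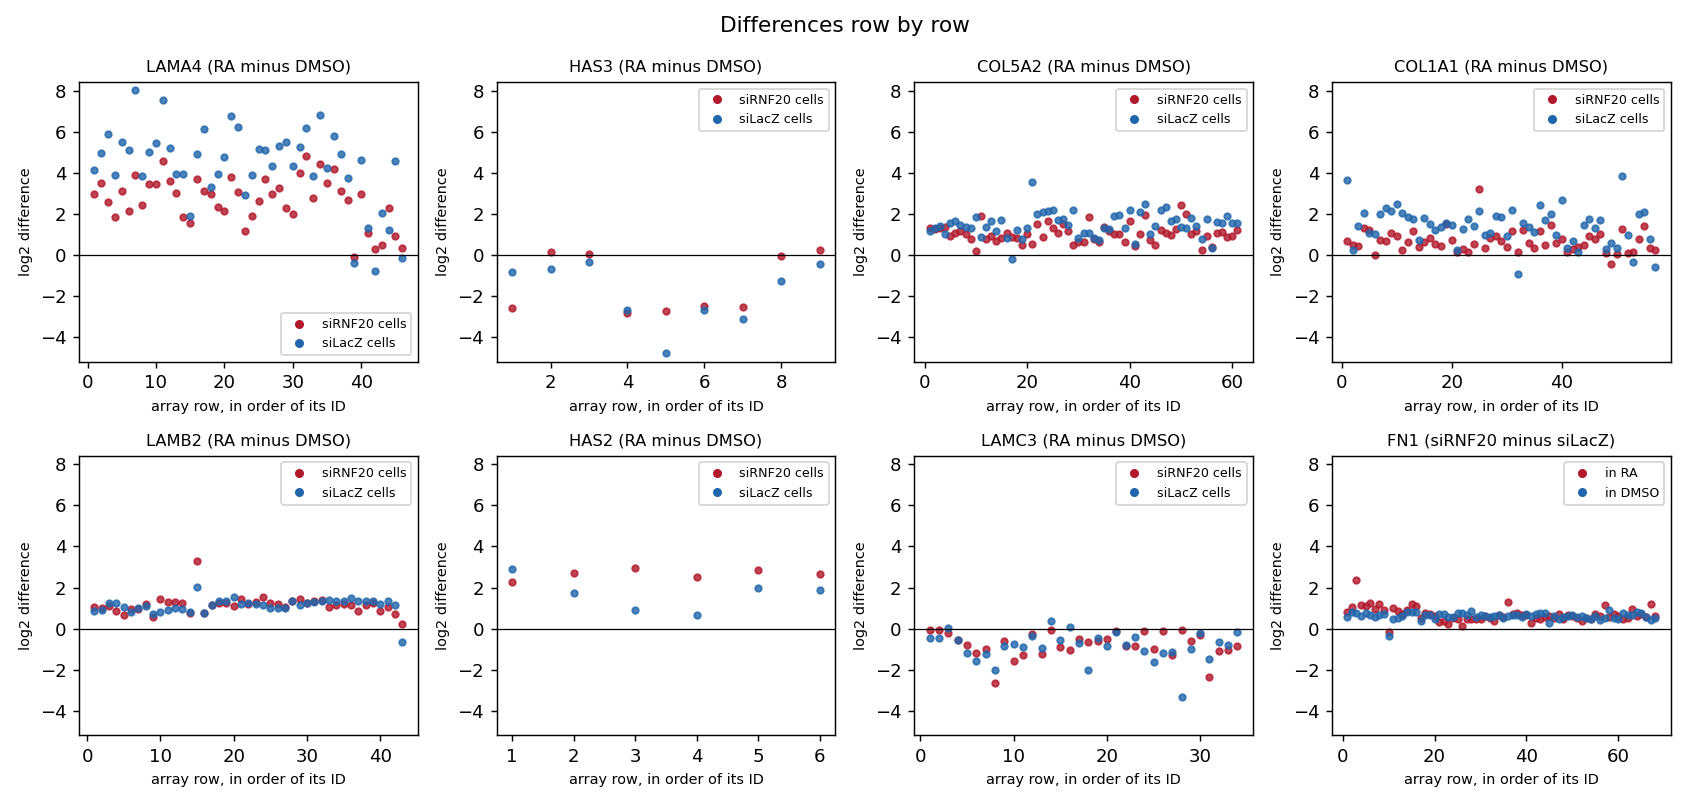
Log2 difference (y axis) of each kept row (x axis, in order of row ID): RA minus DMSO in siRNF20 (red) and siLacZ (blue) cells for the 7 members that passed for RA, and siRNF20 minus siLacZ in RA (red) and DMSO (blue) for FN1. The rows of LAMB2, COL5A2 and HAS2 lie almost wholly above 0.

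The second comparison asks what RNF20 depletion does. No member passed in RA (0.0107% of all genes did) or in DMSO (0% of all genes). At an unadjusted p under 0.05 there were 5 members in RA (8.47%, against 1485 or 7.93% of all genes) and 3 in DMSO (5.08%, against 519 or 2.77%). The median log2 difference, siRNF20 minus siLacZ, over the members was 0.07 in RA and 0.08 in DMSO, against -0.01 over all genes in both. HAS2 had the largest difference, 2.43 in RA (SE 0.33, adjusted p = 0.0997, 5.4-fold) and 0.85 in DMSO (SE 0.27, adjusted p = 1). Without the GF120 RA siRNF20 array, which leaves no replicate in either RA group, the RA difference was 2.84. Within GF120 it was 2.03 in RA, and in DMSO it was 0.82 in GF117 and 0.89 in GF120. HAS2-AS1, an antisense gene that overlaps HAS2 and is no member, was looked at after the values of HAS2 were seen and differed by 0.57 in RA (adjusted p = 0.655); its difference with RA was -0.21 in siRNF20 and -0.41 in siLacZ cells, also not passing. FN1, which cells bind through integrins, read 9.99 and 9.61 in RA siRNF20, against 9.05 in RA siLacZ, and 10.04 and 9.82 in DMSO siRNF20, against 9.65 and 8.89 in DMSO siLacZ. Within each treatment the siRNF20 arrays were above, without overlap, and 67 of 68 rows were higher. The FN1 differences of 0.75 in RA (SE 0.29) and 0.66 in DMSO (SE 0.24) did not pass. Such row counts were not particular to FN1. LAMB2 had 1 of 43 rows higher with siRNF20 in each treatment, and LAMC1 0 of 36 in DMSO and 18 in RA. NID2 read 5.63 and 6.04 in RA siRNF20, against 6.56 in RA siLacZ, and 5.85 and 5.78 in DMSO siRNF20, against 5.71 and 5.78 in DMSO siLacZ, with differences of -0.72 and 0.07. NID1 read 8.21 and 7.89 in RA siRNF20, against 8.28 in RA siLacZ, and 7.83 and 7.78 in DMSO siRNF20, against 8.34 and 7.84 in DMSO siLacZ, with differences of -0.23 and -0.29. COL17A1, the transmembrane collagen of hemidesmosomes, read 5.51 and 5.62 in DMSO siRNF20, against 4.84 and 5.26 in DMSO siLacZ, a difference of 0.52 that did not pass. LAMA4 differed by -1.40 in RA (SE 0.34, adjusted p = 0.273) and by 0.42 in DMSO. In DMSO 3 of the LAMA4 readings were below the dim-row limit. The 41 other members lay between -0.68 and 0.57 in RA and between -0.32 and 0.36 in DMSO.

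**Figure D4:**
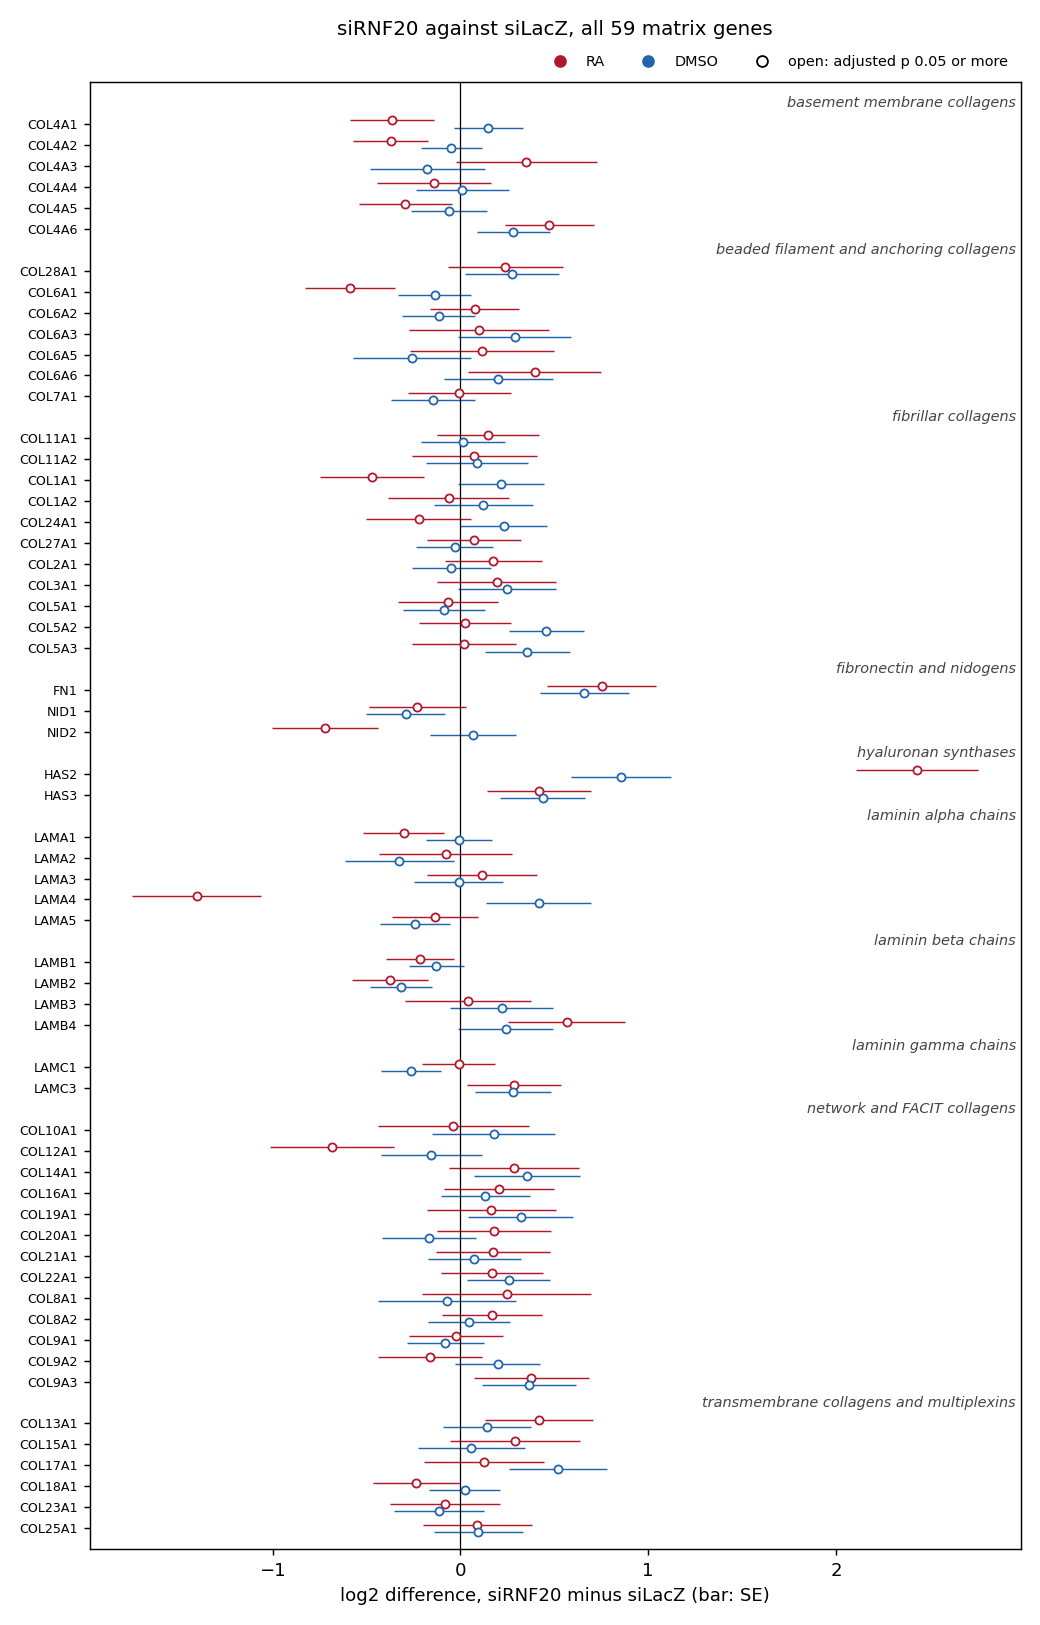
The log2 difference, siRNF20 minus siLacZ, of each of the 59 members in RA (red) and DMSO (blue), with bars of 1 SE. All points are open, since none passed, and HAS2 in RA lies farthest right.

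The third comparison sets the RA response of siRNF20 cells against that of siLacZ cells, as a difference of the 2 differences. No member passed, nor did any gene of the array (0%), with 2 members (3.39%) and 737 genes (3.93%) at an unadjusted p under 0.05. LAMA4 had -1.82 (SE 0.44, adjusted p = 0.919) and HAS2 1.58 (SE 0.42, adjusted p = 0.936). Within GF120 they were -1.74 and 1.14. LAMA4 read below the dim-row limit on 3 DMSO arrays, so the size of its difference is uncertain. NID2 had -0.79 (SE 0.36, adjusted p = 0.999).

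The genes that process, bind or cut the matrix were counted with RA in the same way, against 3.92% of all genes in siRNF20 and 3.91% in siLacZ cells. In siRNF20 cells the share called was 0% of the collagen processing enzymes, 3.57% of the receptors, 19.2% of the proteases and inhibitors and 8.7% of the proteoglycans and their partners. In siLacZ cells it was 3.12%, 3.57%, 7.69% and 6.52% of the same lists. The enzymes and receptors were thus near or below the background. Of 32 collagen processing enzymes 0 passed in siRNF20 cells and 1 rose in siLacZ cells, PCOLCE, which speeds procollagen trimming, at 0.94 (adjusted p = 0.0273), against 0.37 in siRNF20 cells (adjusted p = 0.292). Of 28 matrix receptors 1 fell in each, CD44, the hyaluronan receptor, with log2 differences of -2.29 in siRNF20 (adjusted p = 0.00113) and -2.30 in siLacZ cells (adjusted p = 0.00392). Of 26 proteases and inhibitors 1 rose and 4 fell in siRNF20 cells, and 1 rose and 1 fell in siLacZ cells. MMP11, a metalloprotease, rose by 1.28 in siRNF20 and 1.44 in siLacZ cells, and TIMP4, an inhibitor of such enzymes, had -2.47 and -2.85. CTSK, PLAU and PLAT, a cysteine protease and the 2 plasminogen activators, had -1.39, -1.13 and -0.79 in siRNF20 cells, where they passed, and -1.22, -0.84 and -0.44 in siLacZ cells, where they did not. Of 46 proteoglycans, glycoproteins and hyaluronan partners 1 rose and 3 fell in siRNF20 cells, and 1 rose and 2 fell in siLacZ cells. HAPLN1, which links hyaluronan to proteoglycans, rose by 3.51 in siRNF20 and 4.12 in siLacZ cells. The glycoproteins THBS2 and TNC had -2.58 and -1.42 in siRNF20, and -2.84 and -1.37 in siLacZ cells. SPOCK1, a proteoglycan, had -1.01 in siRNF20 cells (adjusted p = 0.0428) and -0.81 in siLacZ cells (adjusted p = 0.179).

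Markers of other cell types stood beside these values as follows. Of 8 endothelium markers CDH5 rose and KDR fell in both backgrounds and the other 6 did not pass, with summed intensities of 543 to 659 in RA siRNF20, 718 in RA siLacZ, 678 to 734 in DMSO siRNF20 and 578 to 708 in DMSO siLacZ. Of 10 extraembryonic endoderm markers none passed by limma in either background, with 1 and 2 at an unadjusted p under 0.05, and the sums were 2113 to 2185, 1867, 1672 to 1811 and 1374 to 1653 in the same order. Of 9 mesenchyme markers THY1 fell in both and the others did not pass, and of 10 neural markers 4 rose in siRNF20 and 3 in siLacZ cells. In the same order the mesenchyme sums were 514 to 523, 550, 663 to 769 and 600 to 784. The neural sums were 1349 to 1522, 1615, 696 to 791 and 643 to 681, higher with RA in both backgrounds. The part of these markers in the member results was not tested, and fewer cells of a type and less RNA per cell cannot be told apart.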

How the data were processed

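RNA of NTera2/D1 cells was read on 8 Affymetrix Human Exon 1.0 ST arrays. The deposited values are linear intensity per array row, and the authors' background correction and normalization are not given in the sources used here. Each deposited intensity was turned into log2 and not normalized again. Of 1384231 rows, 354600 carried 1 gene symbol; a row had to exceed the median row in mean log2 (the dim-row limit, 3.97), and genes were read as medians over such rows. Of 19497 symbols 16426 were current, 2950 were updated and 121 were kept. limma (version 3.58.1, R version 4.3.3, data.table package version 1.17.8) fitted the 4 group means on 7 arrays with an intensity trend, with two-sided tests and Benjamini-Hochberg adjustment over all 18732 genes, called below 0.05. The GF117 RA siLacZ array was left out because earlier results had shown it to correlate poorly with the others. RA siLacZ then has 1 array, so limma uses the spread of the other groups. The fitting was tested on simulated data. Figures used Python 3.11.15 and matplotlib 3.10.9.

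Members, lists, contrasts and rules were chosen with earlier results of these data known. Members named with all values were those called, the largest movers where few were called, and HAS2, FN1, NID1, LAMB1, LAMC1, COL4A1 and COL4A2; pathway genes were those called. The alternatives were all 8 arrays, the GF number as a block, quantile normalization, no filter or a stricter filter on dim rows, the mean over rows, an offset of 16, no trend, and leaving out each array. Arrays have no depth in counts, so their number sets the precision.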

Additional observations from a re-analysis of the deposited data

Results flagged for a closer look

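Some results were marked because every array of 1 condition moved opposite to the lone GF120 array of the other. The siRNF20 difference in RA minus that in DMSO, on the log2 scale, was -1.82 for LAMA4, -0.43 for COL5A2, -0.69 for COL1A1 and 0.031 for COL23A1. For FN1 the RA response in siRNF20 minus that in siLacZ cells was 0.091 by group means, where both responses were below 0. By GF number, its siRNF20 responses were -0.046 in GF117 and -0.21 in GF120, against 0.16 for siLacZ in GF120. Within GF120 the FN1 difference was thus -0.37, of the opposite sign. limma's test of the difference between the responses gave an adjusted p of 0.919 for LAMA4 and 0.999 for the others. LAMA4 read below the dim-row limit on 3 DMSO arrays. No formal test for outlying samples was run within groups of 2 arrays. The GF117 RA siLacZ array was left out for its low correlation with the others.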

How the results depend on the processing

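With all 8 arrays the members called were 0 for RA in siRNF20 and 0 for RA in siLacZ, against 6 and 5. Without the intensity trend 3 were called for RA in siLacZ. With the GF number as a replicate block there were 10 for RA in siRNF20 and 10 for RA in siLacZ, against 10.5% and 9.57% of all genes, and 1 for siRNF20 in RA (1.24% of all genes), HAS2 at 2.32 (limma, adjusted p = 0.00676); the labels do not say what the number stands for, and deviations of same-numbered arrays correlated at 0.297, 0.301 and 0.364. Leaving out each array gave 3 to 6 for RA in siRNF20, 2 to 6 for RA in siLacZ and 0 to 1 for siRNF20 in RA. Leaving out the GF120 RA siLacZ array gave no value for the contrasts with that group. Without the GF120 RA siRNF20 array each RA group had 1 array. LAMA4 and HAS3 in both backgrounds, and HAS2 in siRNF20 cells, were called in all alternatives run on 7 arrays or fewer. Reversed in sign with all 8 arrays were, for RA in siLacZ, NID2 (-0.54), HAS2 (-0.54), LAMB1 (-0.88) and NID1 (-0.57), and the NID2 difference between responses (0.53). Reversed with the block was FN1 for RA in siLacZ (0.0093). With 1 array left out, the sign turned within these ranges: for RA in siRNF20, FN1 (-0.32 to 0.098), COL4A1 (-0.030 to 0.16) and LAMC1 (-0.32 to 0.076, with 0.037 between), and for RA in siLacZ, FN1 (-0.60 to 0.16) and NID1 (-0.065 to 0.43). None of these passed in the 7-array fit or at the reversed value, but HAS2 for RA in siLacZ passed under 3 other alternatives (adjusted p = 0.0106 with the block). The cause was not tested. Of 533 values of named members under alternatives, 472 kept their direction and side of the threshold, 37 lost a call, 12 gained one and 12 reversed. The gained calls were of COL4A2 (5 for RA in siLacZ, 1 for RA in siRNF20), HAS2 (3 for RA in siLacZ, 2 for siRNF20 in RA) and COL23A1 (1 for RA in siLacZ). The number of arrays limits these values.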
